A study of Homo sapiens with 8 samples.

Results

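The genes described here encode 3 families of regulatory subunits of protein phosphatase 2A (PP2A) in PC3, a line of human prostate cancer cells established in culture: the B56 subunits (*PPP2R5A*, *PPP2R5B*, *PPP2R5C*, *PPP2R5D* and *PPP2R5E*), the B'' subunits *PPP2R3A* and *PPP2R3B*, and the striatins (*STRN*, *STRN3* and *STRN4*). They were chosen by family name, and all 10 were found among the 58051 genes of the count table. RNA was sequenced from PC3 cells transduced with a lentivirus that expresses either a control hairpin (shScramble, 4 samples) or the sh2 IER5L hairpin (shIER5L, 4 samples), with puromycin selection in both conditions according to the methods. The silenced samples all carry the same hairpin, so that an effect of losing IER5L and an effect of this hairpin on other transcripts cannot be told apart. The labels call the samples biological replicates, and the methods describe 4 plates seeded per condition, so that the p-values measure the spread between such plates.

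PP2A is a serine/threonine phosphatase made of a catalytic subunit, a scaffold and an exchangeable regulatory subunit, and the regulatory subunit selects the substrates. B56 subunits recognise short linear motifs in their partners, and they act at kinetochores, in Wnt signalling and on MYC. B'' subunits bind calcium through EF-hand domains, and the striatins assemble PP2A with kinases in the STRIPAK complex, which counteracts Hippo signalling. IER5L belongs to a family that has been linked to another class of regulatory subunits, B55.

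The total count per sample, which is the number of reads that fell on genes, ran from 21512128 to 24662190. Of the 10 marker genes looked up for the cell line, the epithelial keratin gene *KRT18* and the mesenchymal *VIM* had means of 398.6 and 538.6 CPM in shScramble cells (CPM, counts divided by a scaled library size, so that samples can be compared). *EPCAM*, *KRT8* and *CDH1* lay between 1.09 and 47.6 CPM on average in shScramble cells, and 0 of the 8 markers tested passed an adjusted or an unadjusted p under 0.05, whether by edgeR, DESeq2 or limma voom. Among all genes tested, 3.93% and 16.5% did so by edgeR. *IER5L*, the target of the hairpin, stood at 3.91, 6.51, 5.62 and 3.23 CPM in the control replicates 1 to 4. The silenced replicates 1 to 4 gave 2.73, 3.02, 2.04 and 1.32 CPM. All silenced samples were thus below all controls (log2 fold change -1.08 ± 0.248, standard error; adjusted p = 0.0212). The call was lost without shScramble replicate 2 (adjusted p = 0.0937), shScramble replicate 3 (0.078) or shIER5L replicate 3 (0.0891), and exons of 2 antisense genes overlap the gene.

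Because the silenced cells differ from the controls by 1 hairpin, its sequence is shown before the values. The sequence of sh2 IER5L, with a stretch of 8 bases in capitals, is given here 5′ to 3′. It reads as the *IER5L* transcript does, in whose coding sequence it lies (chr9:129176988-129177008, minus strand).
sh2 IER5L: gacgcgtccaACATCTCAaac
The capitals hold the overlapping heptamers CATCTCA (bases 12 to 18) and ACATCTC (bases 11 to 17). These heptamers were chosen with earlier results of the same samples known. They were looked up, on the transcript strand, in the longest 3' UTR that GENCODE v44 annotates for each gene. One or both were present in 3 of the 10 genes, *PPP2R3A*, *STRN* and *PPP2R5E*, and in 24% of the 12702 genes tested that have an annotated 3' UTR of at least 30 bases. The 3' UTRs of all 3 genes, with 2731 bases in *PPP2R3A*, 4648 in *PPP2R5E* and 11761 in *STRN*, are longer than the median of 1543, and long 3' UTRs hold the heptamers more often: 37.4% of the 4393 genes with 2000 to 6000 bases had one, and 85% of the 167 genes with 10000 bases or more. The windows below align each site with the hairpin base by base, with the heptamer in capitals.
PPP2R3A, CATCTCA, chr3:136145653-136145659 (+): cactgccaaaaCATCTCAgag
PPP2R5E, CATCTCA, chr14:63373071-63373077 (-): gtgaattcaccCATCTCAtac
STRN, ACATCTC, chr2:36846833-36846839 (-): tgctgtggatACATCTCtggg
STRN, ACATCTC, chr2:36844290-36844296 (-): ggtctaccacACATCTCcctc
STRN, ACATCTC, chr2:36839952-36839958 (-): tctcctaggaACATCTCtgtc
STRN, CATCTCA, chr2:36838855-36838861 (-): tacgttctctgCATCTCAcat
Coordinates are those of hg38. In *PPP2R3A* the base before CATCTCA is an A, so that the same site also reads ACATCTC, from 136145652 to 136145658 on chromosome 3. The windows share between 8 and 12 of their 21 bases with the hairpin, and those of *PPP2R3A*, *PPP2R5E* and the CATCTCA site of *STRN* share 12. These counts include the heptamer itself, for which the windows were chosen, so that part of each match was fixed in advance. The sites of *STRN* at 36839952 and 36838855 lie beyond the exons over which its reads were counted. A match describes the letters only, and whether any of these sites is used was not tested.

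**Figure D1:**
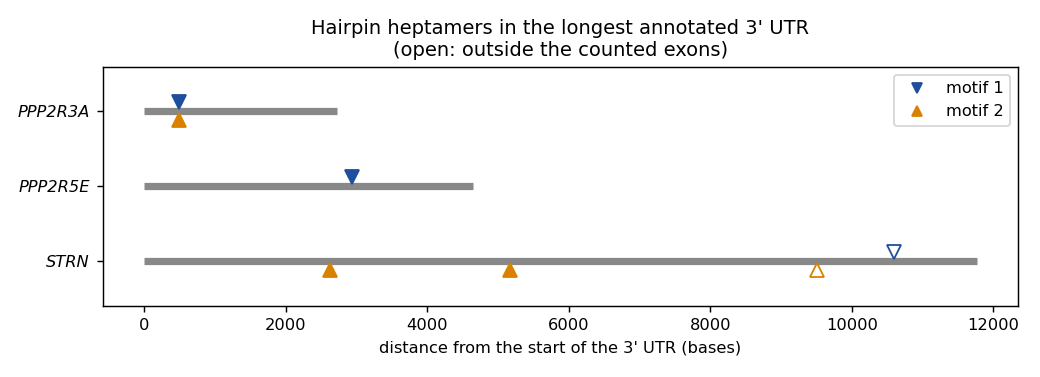
Positions of the hairpin heptamers along the longest annotated 3' UTR of the 3 genes that hold one, in bases from the start of the 3' UTR. Blue triangles (motif 1) are CATCTCA and orange triangles (motif 2) are ACATCTC. Open triangles lie outside the counted exons. *PPP2R3A* has its overlapping pair at bases 490 and 489 of 2731, *PPP2R5E* has 1 site at base 2935 of 4648, and *STRN* has 4 sites spread over 11761 bases.

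To ask whether silencing of *IER5L* altered the expression of these subunits, shIER5L cells were compared with shScramble cells by edgeR's quasi-likelihood test on all genes that passed a filter on low counts (16959 genes, the 10 subunit genes among them). *PPP2R3A* fell and no other gene of the 3 families passed an adjusted p under 0.05, which makes 1 of 10, against 3.93% of all genes tested (1.46% lower and 2.46% higher). At an unadjusted p under 0.05 there were 4 of 10, against 16.5% of all genes, with *PPP2R3A* and *STRN* lower (6.78% of all genes) and *PPP2R5A* and *PPP2R5C* higher (9.69%). In the same 4 genes the samples of the conditions did not overlap, as they did not in 10.9% of all genes (4.61% lower and 6.33% higher). By the study's threshold for differential expression, which adds a log2 fold change of 0.5 or more in either direction, 0 of the 10 were called by edgeR, DESeq2 or limma voom, while 0.790% of all genes were called by edgeR. The median log2 fold change of the 10 was -0.04, with a range from -0.30 to 0.15, and that of all genes was 0.00.

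**Figure D2:**
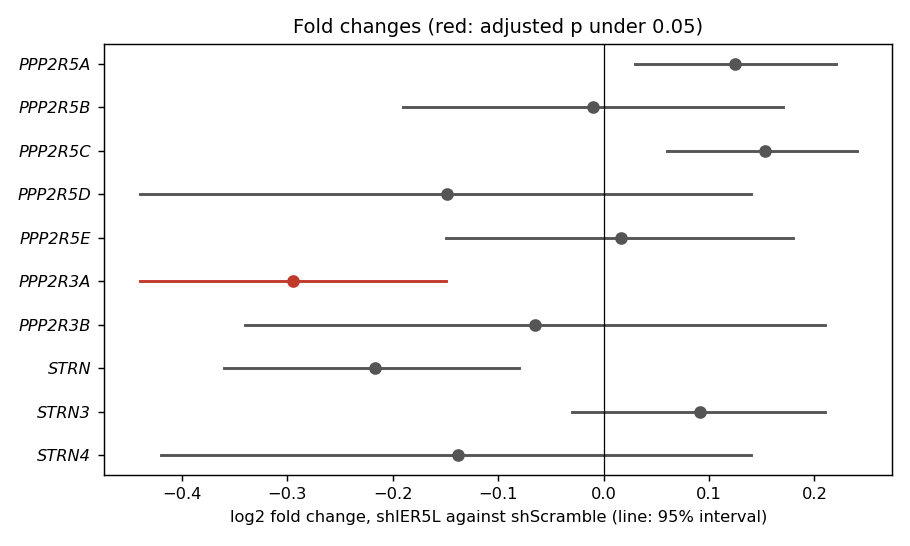
Log2 fold change of each gene in shIER5L against shScramble cells (x axis), with lines for the 95% interval from edgeR's quasi-likelihood fit. The interval of *PPP2R3A* (red, adjusted p under 0.05) runs from -0.44 to -0.15, and those of *STRN*, *PPP2R5A* and *PPP2R5C* also leave out 0, without passing the adjustment.

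The clearest difference was thus in the B'' family. *PPP2R3A* (ENSG00000073711; chromosome 3 of hg38, 135965673 to 136147891, plus strand) encodes B'' subunits of more than 1 length, which are known to bind calcium and to act in Wnt signalling through Naked cuticle. The control replicates 1 to 4 gave 36.1, 37.1, 34.4 and 39.1 CPM. The silenced replicates 1 to 4 gave 28.5, 30.7, 28.7 and 31.7 CPM. Every silenced sample was below every control. These are bulk samples, in which a lower level in all cells and a loss from some of them cannot be told apart. The mean was 36.7 ± 1.94 CPM in control and 29.9 ± 1.56 CPM in silenced cells (SD, n = 4 each). Expression fell by 18.5% by the fitted fold, or -0.30 ± 0.0678 on the log2 scale (estimate and standard error), with an adjusted p of 0.0209. It was past the threshold in all 11 other settings tried and in 4 of the 8 fits with a sample removed. It was not past it without shScramble replicate 2 (adjusted p = 0.0732), shScramble replicate 4 (0.0807), shIER5L replicate 1 (0.0617) or shIER5L replicate 3 (0.0685), with log2 fold changes from -0.29 to -0.26 in these fits. Its exons share 31 bases with an antisense gene that had at most 4 counts in any sample.

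*PPP2R3B*, which encodes a B'' subunit known to bind the replication licensing factor CDC6, did not separate the conditions. The control replicates 1 to 4 gave 18.5, 21.4, 25.4 and 16.9 CPM. In silenced replicates 1 to 4 the values were 22.9, 21.7, 18.2 and 15.8 CPM. The conditions overlapped over most of their range, and the spread within a condition was wider than the difference between the means (20.5 ± 3.71 against 19.7 ± 3.25, SD, n = 4 each). The log2 fold change was -0.07, with a 95% interval from -0.34 to 0.21 (adjusted p = 0.868), which includes the estimate of *PPP2R3A*.

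*PPP2R3B* is the most GC-rich of the 10 genes (65.4% of its canonical transcript), and it lies in the pseudoautosomal region of the X chromosome (333963 to 386955), which has a copy on Y. Whether the Y copy was masked in the alignment is not given in the sources used here, so reads of such genes may be counted in part. Other genes of that region were counted: 9 of the 14 looked up had enough counts to be tested, among them *SLC25A6* with a mean of 333.3 CPM in shScramble cells, and 0 of the 9 passed the adjusted threshold by edgeR, DESeq2 or limma voom. At an unadjusted p under 0.05 there was 1, *DHRSX* (log2 fold change 0.21, adjusted p = 0.19), by each of the tools. By edgeR, 3.93% of all genes tested passed the adjusted and 16.5% the unadjusted threshold. *CD99*, the next of the 9 by p, had a log2 fold change of 0.07 (adjusted p = 0.543). In the fit that takes out each sample's dependence on GC content (the GC trend), the standard error of *PPP2R3B* was 0.0731, against 0.13 in the reported fit. Its log2 fold change there was -0.01. The standard errors of the next most GC-rich subunit genes changed less: *STRN4* 0.129 against 0.133, *PPP2R5B* 0.0862 against 0.0831 and *PPP2R5D* 0.118 against 0.137.

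Among the striatins, *STRN* was lower and *STRN3* and *STRN4* did not separate the conditions. *STRN* (ENSG00000115808; chromosome 2, 36843640 to 36966472, minus strand), the founding member of the family and a calmodulin-binding scaffold, gave 56.9, 51.1, 50.6 and 57.5 CPM in the control replicates 1 to 4. The silenced replicates 1 to 4 gave 47.4, 42.4, 48.6 and 47.5 CPM, all of them below the lowest control. The means were 54 ± 3.71 and 46.5 ± 2.78 CPM (SD, n = 4 each). The log2 fold change of -0.22 (standard error 0.066, 95% interval from -0.36 to -0.08) missed the adjusted threshold (adjusted p = 0.0855, edgeR). It passed in 5 of the 11 other settings, with DESeq2 (adjusted p = 0.0282) and with the GC trend removed (log2 fold change -0.28, adjusted p = 0.000532) among them. With any 1 of the 8 samples left out it did not pass (adjusted p from 0.0998 to 0.234).

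*STRN3*, the most abundant striatin by reads per length, had between 117.9 and 132.7 CPM in shScramble cells and between 121.7 and 142.5 in shIER5L cells. Its log2 fold change was 0.09 (95% interval from -0.03 to 0.21, adjusted p = 0.463). *STRN4* was the weakest of the 10 genes, with 119 to 174 counts per sample, 6.38 ± 0.817 CPM in shScramble and 5.8 ± 0.731 in shIER5L cells (SD, n = 4 each). For *STRN4* the log2 fold change was -0.14, and its interval, from -0.42 to 0.14, included the estimate of *STRN* (adjusted p = 0.679). Exons of genes on the other strand cover 3.12% or less of the exons of *STRN3* each, and 2.09% or less of those of *STRN4*.

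As a result *STRN* took a smaller share of the striatin transcripts. Per kilobase of counted exon, *STRN* made up 19.7% to 21.5% of the summed striatin level in the shScramble samples and 16.6% to 17.7% in the shIER5L samples, and *STRN3* 76.4% to 77.5% against 79.5% to 81.5%. The shares do not overlap between conditions. With the length of the canonical transcript in place of that of the counted exons, the share of *STRN* was 10.5% to 11.7% against 8.8% to 9.36%, which again did not overlap. The canonical transcript of *STRN* reaches beyond its counted exons, which lowers its share by this length in both conditions. These shares restate the gene levels above and were not tested.

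In the B56 family the 2 most abundant members were the 2 that stood higher in the silenced cells. *PPP2R5C* (ENSG00000078304; chromosome 14, 101761798 to 101927989) encodes B56 gamma, an isoform known for its role in chromosome segregation. The control replicates 1 to 4 gave 259.2, 244.7, 245.6 and 252.2 CPM. The silenced replicates 1 to 4 gave 270.2, 268.2, 293.6 and 281.4 CPM, so that the lowest silenced sample stood above the highest control. The means were 250.4 ± 6.74 and 278.3 ± 11.7 CPM (SD, n = 4 each), and the log2 fold change was 0.15 (95% interval from 0.06 to 0.24). It missed the adjusted threshold in edgeR (adjusted p = 0.0582) and passed it with DESeq2 (adjusted p = 0.0429), with the GC trend removed (0.0149) and without shIER5L replicate 2 (0.0397).

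*PPP2R5A* (ENSG00000066027; chromosome 1, 212285537 to 212361863) encodes B56 alpha, known for promoting the turnover of MYC. It ranged from 107 to 112.6 CPM in shScramble and from 116.5 to 124.2 CPM in shIER5L samples, again without overlap. Its log2 fold change of 0.12 (standard error 0.0449, 95% interval from 0.03 to 0.22) did not pass either (adjusted p = 0.156, edgeR). It passed only with the GC trend removed, among the 11 other settings (adjusted p = 0.0284).

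The other three B56 genes showed no difference beyond the spread between samples. *PPP2R5E* (B56 epsilon) gave 45.4, 39.5, 43 and 44.5 CPM in the control replicates 1 to 4. The silenced replicates 1 to 4 gave 41.1, 39.6, 43.4 and 50.2 CPM, which overlap the controls, with a log2 fold change of 0.02 (95% interval from -0.15 to 0.18). This gene carries CATCTCA in its longest annotated 3' UTR, as *PPP2R3A* does. In each of these genes a heptamer is present in 1 of the 3 annotated transcripts with a 3' UTR. Which of these transcripts the cells express was not tested, nor was the difference between the genes. *PPP2R5B* (B56 beta), with 14.8 ± 0.434 against 14.7 ± 0.81 CPM (SD, n = 4 each), had a log2 fold change of -0.01 (95% interval from -0.19 to 0.17). *PPP2R5D* (B56 delta) ranged from 8.87 to 12.8 CPM in shScramble and from 7.32 to 10.4 CPM in shIER5L samples. Its log2 fold change was -0.15 with an interval from -0.44 to 0.14 (adjusted p = 0.666), and 7.51% of its exon bases lie on those of *MEA1* on the other strand, where reads cannot be told apart by strand.

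**Figure D3:**
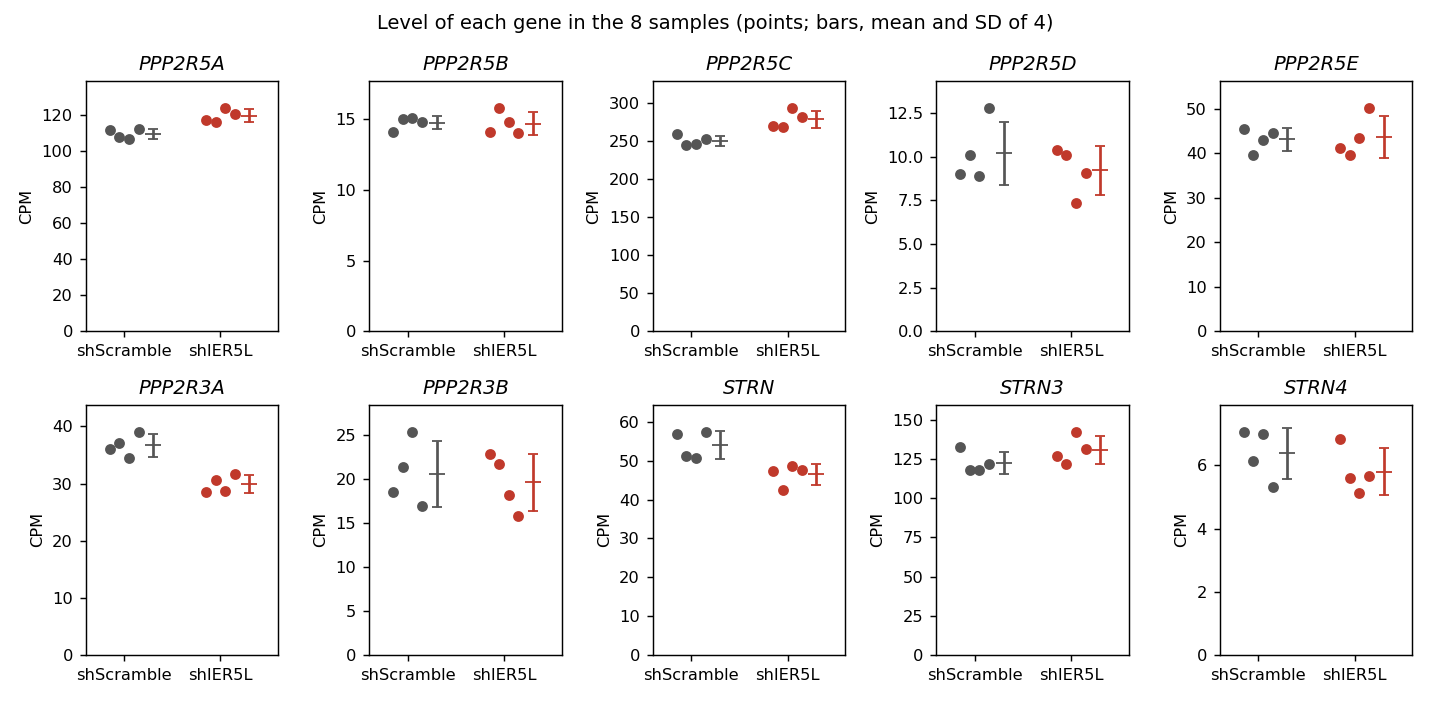
CPM (y axis, from 0) of each of the 10 genes in the 4 shScramble samples (grey points) and the 4 shIER5L samples (red points), ordered by replicate number, with the mean and SD beside them. *PPP2R3A* and *STRN* are lower and *PPP2R5A* and *PPP2R5C* higher in every shIER5L sample than in any shScramble sample; the other 6 genes overlap.

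The precision differed between the genes. The 4 genes with the highest GC content, *PPP2R3B* (65.4%), *STRN4* (63%), *PPP2R5B* (60.8%) and *PPP2R5D* (55.3%), were also the 4 with the lowest CPM, so that GC content and expression cannot be told apart here. Their standard errors, from 0.0831 to 0.137 on the log2 scale, were above those of the other 6, from 0.0426 to 0.0767. The median standard error of all genes tested was 0.109.

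To compare levels between genes, CPM were divided by length. Per kilobase of counted exon, the order in shScramble cells was *PPP2R5A* (28.7 ± 0.744 CPM per kilobase, SD, n = 4), *STRN3* (24.7 ± 1.41), *PPP2R5C* (17.5 ± 0.471), *STRN* (6.48 ± 0.444), *PPP2R5E* (4.69 ± 0.284), *PPP2R3A* (4.68 ± 0.247), *PPP2R5B* (4.37 ± 0.129), *PPP2R5D* (3.08 ± 0.552), *PPP2R3B* (2.28 ± 0.411) and *STRN4* (0.835 ± 0.107). The ranges of *PPP2R5E*, *PPP2R3A* and *PPP2R5B* overlapped from each to the next, as did those of *PPP2R5D* and *PPP2R3B*, and the other neighbours were separated in all 4 samples. The order depends on the length used. The counted exons pool annotated transcripts of a gene and can be longer than its canonical transcript: 14289 bases for *PPP2R5C*, whose canonical transcript has 4630, and 9015 for *PPP2R3B*, whose canonical transcript has 2378. In *STRN* the canonical transcript, with 14174 bases, reaches beyond the counted exons, with 8345. The level of *STRN* by canonical length is thus divided in part by bases over which no reads were counted. By canonical transcript length, *PPP2R5C* came first (54.1 ± 1.45), followed by *PPP2R5A* (33.9 ± 0.877), *STRN3* (29.2 ± 1.67) and *PPP2R3B* (8.64 ± 1.56), with *STRN* (3.81 ± 0.261) in place 8. *PPP2R5A*, *PPP2R5C* and *STRN3* were the 3 highest and *STRN4* the lowest under both lengths.

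**Figure D4:**
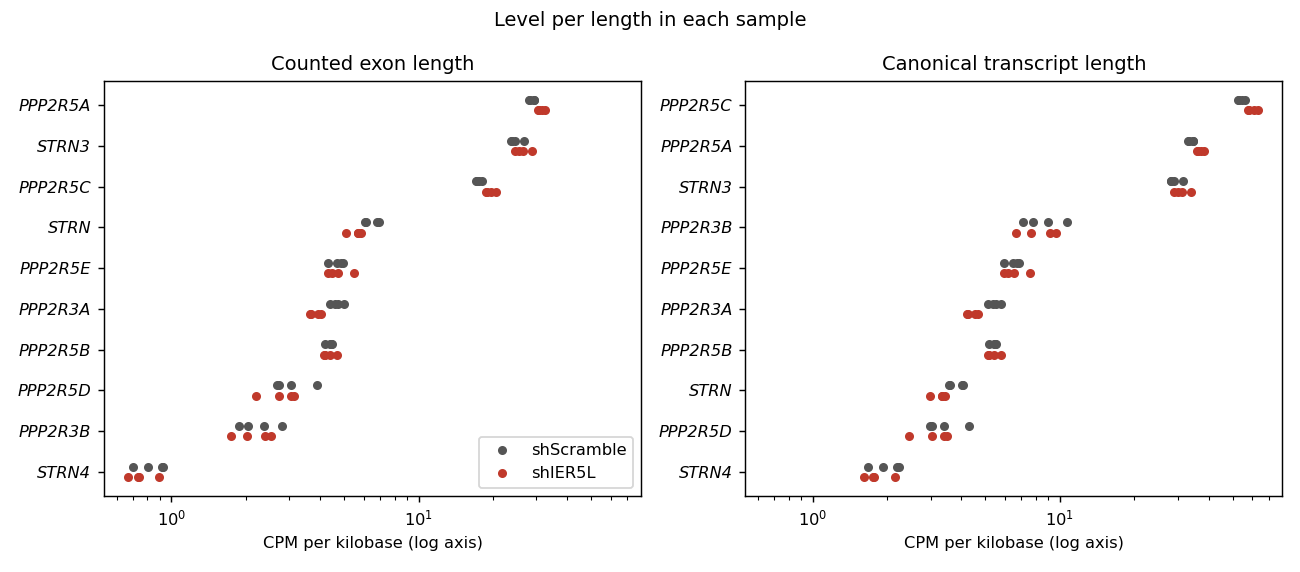
CPM per kilobase (log axis) of each gene in the 8 samples, by the length of the counted exons (left) and by that of the canonical transcript (right), grey for shScramble and red for shIER5L. *PPP2R5A*, *PPP2R5C* and *STRN3* lie apart at the top in both panels, and *PPP2R3B* moves from place 9 to place 4.

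The levels per kilobase were also summed over the 10 genes and the 4 B55 genes, *PPP2R2A* to *PPP2R2D*. By counted exons, B56 made up 52.2% to 53.4% of this sum in shScramble and 53.7% to 54.7% in shIER5L samples, *PPP2R3A* with *PPP2R3B* 5.86% to 6.63% and 4.77% to 5.64%, the striatins 28.3% to 30.3% and 27% to 29.5%, and B55 11.7% to 12.7% and 11.7% to 12.8%. The ranges of B56 and of the B'' pair did not overlap between conditions by this length. By canonical transcript length they did, with 58.3% to 60.1% against 59.9% to 61.4% for B56 and 7.35% to 9.11% against 6.12% to 7.59% for the B'' pair. Another B'' gene, *PPP2R3C*, has a higher level per kilobase than the pair together, 7.38 to 8.69 by counted exons in shScramble samples. With it in the sum, a choice made after the data were seen, B'' made up 12.2% to 12.9% against 10.9% to 11.6% by counted exons, and 16.8% to 18.1% against 15.5% to 16.6% by canonical length. These shares were not tested.

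The rest of the phosphatase was looked up from lists of genes. These and the lists of partners below were drawn up with earlier results of these data known, so their counts are descriptions only. Of the 8 genes for the catalytic subunits, the scaffolds and the B55 subunits, 0 passed an adjusted and 0 an unadjusted p under 0.05, by edgeR, DESeq2 or limma voom. The shares of all genes tested were 3.93% and 16.5% by edgeR. Their median log2 fold change was 0.08 with a range from -0.10 to 0.18. The lowest unadjusted p-values among them were those of the catalytic subunit genes *PPP2CA* (log2 fold change 0.12, adjusted p = 0.308) and *PPP2CB* (0.11, adjusted p = 0.343).

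Among 15 STRIPAK partners of the striatins, 1 passed, against 3.93% of all genes tested, and it was higher (2.46% of all genes). *CTTNBP2*, which encodes a cortactin-binding protein that associates with striatin, had between 0.803 and 0.943 CPM in the shScramble and between 1.5 and 1.64 CPM in the shIER5L samples (log2 fold change 0.92 ± 0.228, standard error; adjusted p = 0.0312). With 18 to 38 counts per sample this is a weakly expressed gene, its exons overlap those of *CFTR* on the other strand, and the call held only without shScramble replicate 1 among the 8 fits with a sample removed (adjusted p from 0.0444 to 0.093). It was lost with no filter on low counts (0.0662). The next lowest p was that of *PDCD10*, the adaptor between striatins and kinases of the complex, with a log2 fold change of 0.12 (adjusted p = 0.168). The median of the 15 was 0.08.

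Of 15 partners and substrates of B56, 1 passed, against 3.93% of all genes tested. *CCNG1*, encoding cyclin G1, which is known to recruit B56 subunits, rose. Its mean was 160.8 ± 11.1 CPM in control and 194.3 ± 11.8 CPM in silenced cells (SD, n = 4 each; log2 fold change 0.27 ± 0.0563, standard error; adjusted p = 0.0112). Leaving out shScramble replicate 2, shScramble replicate 3 or shIER5L replicate 3 ended this call, with adjusted p from 0.0512 to 0.0537. *MDM2* was next by p, with a log2 fold change of -0.09 (adjusted p = 0.392). The kinetochore partner *BUB1B*, which carries a well-known B56 motif, had a log2 fold change of -0.05 (95% interval from -0.15 to 0.04) and *MYC* one of -0.07 (from -0.27 to 0.13).

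Of 3 relatives and partners of B'', 1 passed, against 3.93% of all genes tested: *RBL1* fell (1.46% of all genes were called lower). It encodes p107, a pocket protein of the retinoblastoma family that B'' subunits are known to bind. Work cited in the paper links p107 to B55 as well. The list was drawn up with earlier results of these data known, so the count of 1 in 3 is a description only. *RBL1* gave 95.1, 92.5, 96.4 and 96.6 CPM in the control replicates 1 to 4. In silenced replicates 1 to 4 the values were 71.2, 67.3, 77.4 and 78.5 CPM. The fall was -0.37 ± 0.0557 on the log2 scale (estimate and standard error) with an adjusted p of 0.00107, and it passed the threshold in all 11 other settings and with any 1 of the 8 samples left out. An antisense gene overlaps its exons. Its longest 3' UTR of 2413 bases holds CATCTCA 3 times, as do those of *SLMAP* (log2 fold change 0.05) and *PPP2R2B* (0.18). Of the 41 genes of the lists of other subunits and partners, 12 hold one of the heptamers, against 24% of the genes tested with a 3' UTR. Among these 12, 1 (*RBL1*) was called lower, against 1.46% of all genes tested. Log2 fold changes were positive in 7 and negative in 5, with a median of 0.04 against 0.05 for the 29 genes without. The 10 subunit genes are not among the 41, and the difference was not tested. *CDC6*, the partner of the *PPP2R3B* product, had a log2 fold change of -0.10 (adjusted p = 0.404), and *PPP2R3C*, the other B'' gene, one of -0.02 (95% interval from -0.21 to 0.16).

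**Figure D5:**
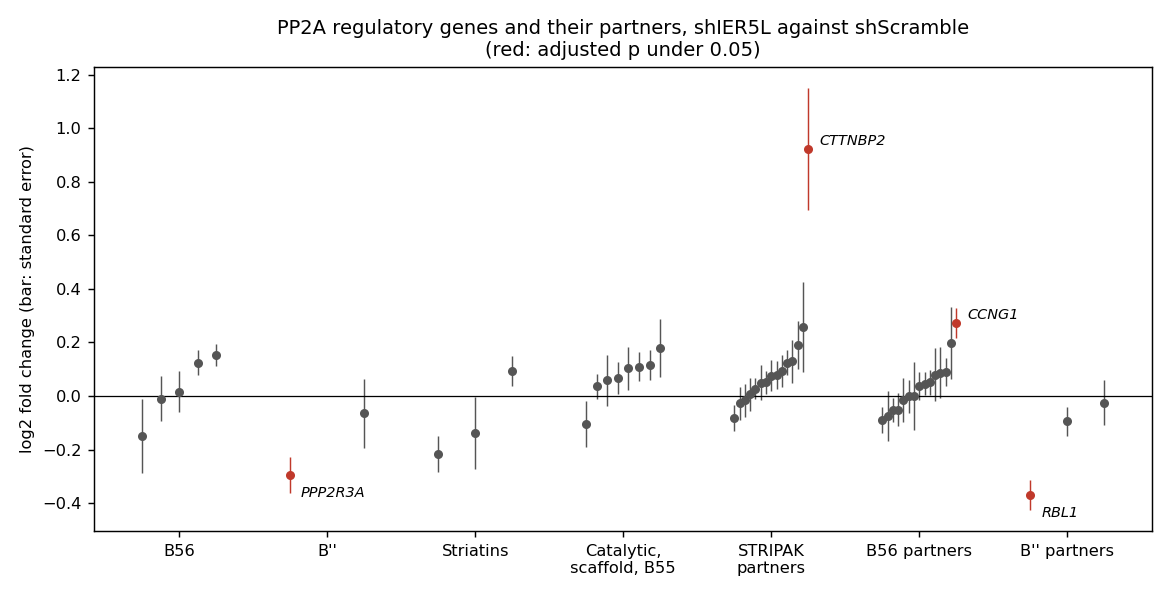
Log2 fold change in shIER5L against shScramble cells (y axis, bars for the standard error) of the B56, B'' and striatin genes and of the lists of other subunits and partners, each list sorted by value. The genes with an adjusted p under 0.05 are red and named: *PPP2R3A* (-0.30) and *RBL1* (-0.37) fell, and *CCNG1* (0.27) and *CTTNBP2* (0.92) rose.

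Across the 8 samples, the genes whose log2 CPM followed that of *PPP2R3A* most closely, among the 9097 other genes with a mean of at least 10 CPM, were *TCTA* (Pearson correlation 0.991), *NR2C2* (0.972) and *TIMM10B* (0.965). These are correlations over 8 samples that share their conditions and libraries, and 75 genes had a correlation above 0.9. *TCTA* fell, with 40.8 ± 1.73 CPM in control and 34.5 ± 1.59 CPM in silenced cells (SD, n = 4 each; log2 fold change -0.24, adjusted p = 0.0409), while *NR2C2* (-0.15, adjusted p = 0.109) and *TIMM10B* (-0.12, adjusted p = 0.325) did not pass. With a sample removed, *TCTA* passed only without shIER5L replicate 2 among the 8 fits (adjusted p from 0.0396 to 0.135).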

How the data were processed

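RNA from 8 samples of PC3 cells was sequenced as paired-end reads. For library preparation the paper gives a total RNA kit with ribosomal depletion, but the labels a poly(A) kit. The authors deposited raw counts, whole numbers of reads per Ensembl gene without normalization, made, per the paper and the submitters' processing notes, with STAR 2.7.5c on hg38, removal of PCR duplicates with SAMtools 1.15 and featureCounts 2.0.3. Per the file headers, primary alignments on exons were counted without a strand option and each read of a pair by itself, so independent fragments are fewer than counts. The deposited exon length of each gene was used for levels per kilobase. Columns were assigned by the sample descriptions, and symbols by identifier (56948 of 58051 genes). The description of shScramble replicate 3 ends in another control number than those of the other shScramble samples. What this number stands for is not stated in the paper.

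Computed here: filterByExpr (16959 genes), TMM scaling, and glmQLFit and glmQLFTest of edgeR 4.0.16 (R 4.3.3) on the condition alone, with Benjamini-Hochberg adjustment over all genes tested. Standard errors were computed as log2 fold change over the root of F. Pairs of replicates within a condition gave a chi-square of 2.81 to 11.6 per degree of freedom. Each read of a pair was counted by itself, which raises these values, and how much of them is sampling noise was not tested. In shIER5L, replicates 1 and 2 (3.32) and 3 and 4 (4.16) lay closer than the other pairs (7.1 to 11.6). In shScramble, replicates 2 and 3 (2.81) and 1 and 4 (3.43) lay closer than the others (5.2 to 6.33). The reason was not tested. On simulated counts for 16959 genes with 200 changed by 1 on the log2 scale, 156 were recovered with 11 false calls. That change is larger than the estimate of any subunit gene, so the simulation does not show how well changes of their size are found. Alternatives were other scalings and filters, DESeq2 1.42.0, limma voom (3.58.1), the likelihood ratio test, a replicate block, halved counts, each sample left out, and, added after the data were seen, removal of the trend with GC content (16817 genes had a value), the canonical transcript length, and *PPP2R3C* in the B'' share. The subunit genes and lists were chosen with earlier results of these data known. Named from the lists were genes past the adjusted p and the pair with the lowest p in each. *BUB1B*, *MYC*, *PPP2R3C*, *SLMAP*, *PPP2R2B*, the cell line markers and *SLC25A6* were added after their values were seen. Some of the cell line markers are not reported here.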

Additional observations from a re-analysis of the deposited data

Results flagged for a closer look

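Groups of 4 samples were checked, 1 per condition for each of the 10 subunit genes, *IER5L* and the 41 genes of the other lists. In 6 of these groups a sample lay far from the other three by Dixon's criterion at 95%, which chance gives in about 1 of 20 groups. None of the 6 concerned the B56, B'' or striatin genes. The scaffold gene *PPP2R1A* had 104.4 CPM in shScramble replicate 1, against 133.5 to 137.5 in the other shScramble samples. The other scaffold gene, *PPP2R1B*, had 135.8 CPM in shIER5L replicate 3, against 125.9 to 126.7. *CTTNBP2* had 0.943 CPM in shScramble replicate 1, against 0.803 to 0.807. *APC* had 65.5 CPM in shScramble replicate 1, against 58.1 to 59.3. *BOD1* had 109.8 CPM in shScramble replicate 4, against 114.1 to 114.4, and 126.2 CPM in shIER5L replicate 1, against 113.6 to 115.6.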

How the results depend on the processing

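*PPP2R3A* kept its direction and its call in each of the 11 other settings. The count of subunit genes past the threshold, 1 in the reported fit, was 2 with total count scaling, 2 with no filter on low counts, 2 with the filter of 1 CPM in 4 samples (*STRN* added in each), 3 with DESeq2 (*STRN* and *PPP2R5C* added) and 4 with the GC trend removed (*PPP2R5A* as well). It ran from 0 to 2 with 1 sample left out. Across all genes the count, 666 of 16959 as reported, rose in these settings too. It was 702 of 16959 with total count scaling, 903 of 35729 with no filter and 720 of 14230 with the filter of 1 CPM. With DESeq2 it was 947 and with the GC trend removed 1435, each of 16959. With 1 sample left out it ran from 305 to 756. The log2 fold change of *IER5L* ran from -1.24 to -0.90 in those fits. Estimates close to 0 changed sign: *PPP2R5B* was at 0.04 with the GC trend removed, *PPP2R5E* at -0.04 there and at 0.00 (negative before rounding) with upper quartile and total count scaling, and with 1 sample left out *PPP2R5B* ran from -0.05 to 0.01, *PPP2R5E* from -0.06 to 0.06 and *PPP2R3B* from -0.15 to 0.05. The cause of these shifts was not tested. With the replicate number as a block, 1 subunit gene and 655 of all genes passed, and the calls of *CTTNBP2* (adjusted p = 0.0608) and *TCTA* (0.0526) were lost, while those of *IER5L*, *PPP2R3A*, *CCNG1* and *RBL1* held. Same-numbered samples had correlations of their deviations of -0.364, 0.391, -0.361 and 0.495, and 1 of the 4 numbers correlated best with its own, so the numbers were not taken as pairs. DESeq2 gave no adjusted p for *CTTNBP2*.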
